A study of Rattus norvegicus with 7 samples.

Results

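AP-1 is a dimeric transcription factor built from proteins of the Fos, Jun and ATF families, and the genes described here are its subunits Fos, Fosb, Fosl1, Fosl2, Jun, Junb, Jund and Atf3. Every probe set that the platform annotation gives to one of these symbols was taken. The array measured 7 of the 8 genes with 14 probe sets, of 4736 genes and 8740 probe sets in all, and it had no probe set under the symbol Fosb. Of the 7, Fos had 3 probe sets, Jun 4, Junb 2 and Fosl2 2, and Fosl1, Jund and Atf3 had 1 each.

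RNA came from primary cultures of hippocampal neurons and of hippocampal astrocytes from Wistar rats, labelled 17-day-old without saying whether before or after birth. Neurons were given grape seed extract (a polyphenol mixture from grape seeds) at 0, 1 or 10 µg/ml and astrocytes at 0, 1, 10 or 100 µg/ml, for 24 h in each case. Each of the 7 combinations was hybridised to 1 Affymetrix array, with no repeat, so that differences between single arrays are given as sizes, untested. The subunits were chosen with their signals on all 7 arrays in view, so every value of theirs is a description. Because RNA was taken from whole cultures, fewer cells of a type and less RNA per cell cannot be told apart.

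Fos proteins do not pair with each other and bind DNA as partners of Jun proteins, which can also pair among themselves. The dimers bind a short palindromic element, the TPA response element, in the promoters and enhancers of genes for matrix proteases, cytokines and growth control. Fos and Junb are immediate early genes: MAP kinases acting on existing factors switch them on within minutes of a stimulus, without new protein synthesis. In the hippocampus Fos is widely used as a marker of recently active neurons, and in glia AP-1 subunits are known to respond to injury, cytokines and stress.

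Signals are the authors' intensities on a linear scale, brought by them to about the same trimmed mean on each array (500.731 to 500.874). For log2 changes, a floor of 17.9 was set, the 25th percentile over the 7 arrays, and lower signals were brought up to it. A gene was represented by its brightest probe set, and it passed the signal filter in neurons or in astrocytes where its log2 signals averaged above that of 79.9, the overall median. Fos, Fosl1, Jun, Junb and Atf3 passed in both cell types, whereas Fosl2 and Jund passed in neither. The median probe set past the filter differed by -0.26 log2 between astrocytes at 100 and at 0 µg/ml, by -0.10 between 10 and 0, and by -0.01 between 1 and 0. All 11 measured neuron markers, such as Nefl and Map2, had higher signals on each neuron array than on any of the 3 astrocyte arrays at the same doses. Of 10 astrocyte markers only 4 were higher on all of those astrocyte arrays and 2 on all neuron arrays.

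**Figure D1:**
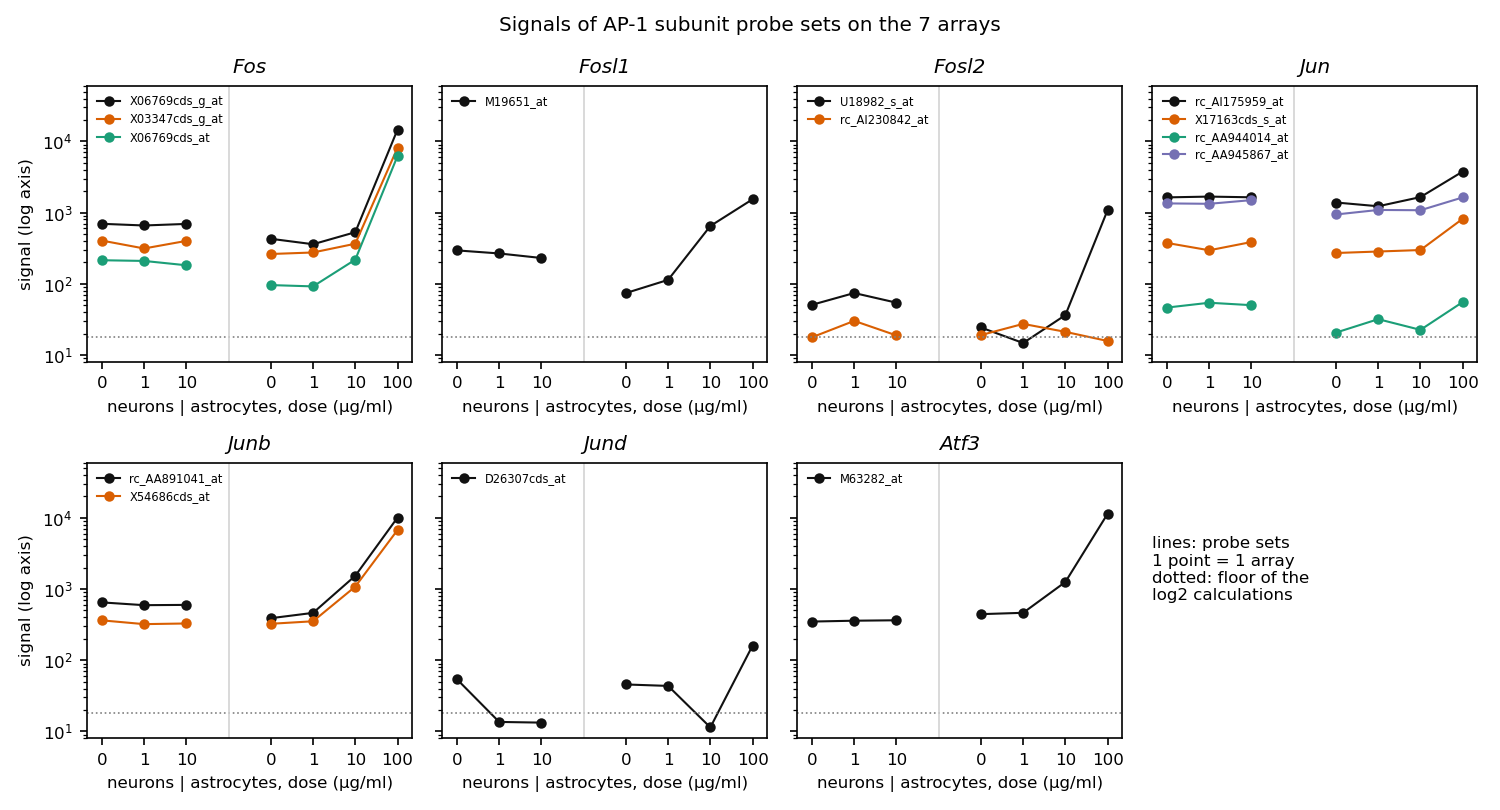
Signals of the 14 AP-1 subunit probe sets (log axis) on the 3 neuron arrays and the 4 astrocyte arrays by dose in µg/ml, 1 point per array and 1 line per probe set, with the floor of 17.9 dotted. The astrocyte array at 100 µg/ml carries the highest point of the panel for every gene, while the neuron lines of Fos, Jun, Junb and Atf3 are nearly flat.

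At 100 µg/ml all 7 measured subunits exceeded the untreated astrocytes by 2-fold or more in their brightest probe sets, and none was lower. The median change of the 7 was 4.69 log2. Over all 4736 genes, 6.27% were at least 2-fold higher in this comparison and 16% at least 2-fold lower, and the median gene past the filter stood at -0.28. Since these arrays were in view when the subunits were chosen, the count describes them and is no evidence about AP-1 as a group. Of the 14 probe sets, 12 were at least 2-fold higher, where 6.06% of all probe sets were. The remaining probe sets were 1 of Jun, at 0.80 log2, and the dimmer 1 of Fosl2.

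Fos, the founding member of its family, gave its brightest probe set signals of 428.1, 359.1, 530.1 and 14646.9 in astrocytes at 0, 1, 10 and 100 µg/ml. The 3 lower doses lay close together and the array at 100 µg/ml stood far above them. Against the untreated astrocytes, the change at 100 µg/ml was 34.2-fold, or 5.10 log2, and at 10 µg/ml it was 0.31 log2. A probe set with another source sequence gave 261.8, 275.0, 365.1 and 8139.0, a change of 4.96 log2 at the highest dose. The third, named for the same source sequence as the brightest, gave 95.8, 91.8, 218.2 and 6234.0, or 6.02 log2. This dimmest probe set was also 1.19 log2 higher at 10 µg/ml, where the other two stood at 0.31 and 0.48, so a 2-fold difference of Fos at 10 µg/ml depends on the probe set.

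Fosl1 encodes Fra-1, a Fos relative without the strong activation domain of Fos. Its signals in astrocytes were 74.0, 113.4, 647.6 and 1538.1 at 0, 1, 10 and 100 µg/ml. Here the array at 10 µg/ml already stood far above both lower doses, by 8.75-fold (3.13 log2) against the untreated astrocytes. At 100 µg/ml the difference was 20.8-fold (4.38 log2), and from 10 to 100 µg/ml it was 1.25 log2. In log2 terms, 71.5% of the change seen at 100 µg/ml was thus present at 10 µg/ml. For Fos it was 6.05% by the brightest probe set and 9.68% and 19.7% by the others.

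Fosl2 encodes Fra-2, which likewise lacks that domain. Its brighter probe set gave 24.3, 14.7, 36.3 and 1085.6 in astrocytes, near or under the floor at the 3 lower doses and clearly measured at 100 µg/ml. The change at 100 µg/ml was 5.48 log2, and 3.76 log2 with the floor set at the median of all signals. The second probe set for Fosl2 gave 19.0, 27.3, 21.1 and 15.7 and stayed at or near the floor on all 4 astrocyte arrays. The probe sets for Fosl2 therefore disagree, and the mean of both gave 2.70 log2.

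Jun, a partner of the Fos proteins, differed less between doses than the Fos genes. Its brightest probe set gave 1385.1, 1226.7, 1649.9 and 3766.2 in astrocytes at 0, 1, 10 and 100 µg/ml. The highest dose stood above the other arrays by 1.44 log2 against the untreated astrocytes, or 2.72-fold. The other 3 probe sets differed by 0.80, 1.42 and 1.60 log2 at 100 µg/ml, and at 10 µg/ml the 4 probe sets differed by 0.13 to 0.25 log2. Jun was well measured in untreated astrocytes and in neurons, where its brightest probe set had the highest signal of all 14 subunit probe sets.

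Junb encodes a Jun relative that is itself induced as an immediate early gene and can dampen the action of Jun. Its probe sets agreed: the brighter gave 389.8, 463.1, 1538.0 and 10107.9 in astrocytes, and the other 325.3, 352.9, 1083.9 and 6759.6. Signals were higher at 10 µg/ml than at both lower doses, and higher again at 100 µg/ml. The brighter probe set differed by 1.98 log2 (3.95-fold) at 10 and by 4.70 log2 (25.9-fold) at 100 µg/ml, and the other by 1.74 and 4.38 log2. The change at 10 µg/ml was 42.2% of that at 100 µg/ml on the log2 scale.

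Jund, a Jun relative that many resting tissues express, was dim, with signals of 45.7, 43.6, 11.4 and 160.7 in astrocytes. Only the array at 100 µg/ml lay above the median of all signals. The change there was 1.81 log2. At 10 µg/ml the signal was under the floor, at least 2.55-fold below the untreated array, and the neuron arrays at 1 and 10 µg/ml, with signals of 13.6 and 13.3 against 54.1 at 0, were under it too. A single dim probe set supports no more than these values.

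Atf3, a stress-induced factor of the ATF family that can pair with Jun proteins, gave signals of 444.4, 464.0, 1258.6 and 11435.9 in astrocytes at 0, 1, 10 and 100 µg/ml. The arrays at 0 and 1 µg/ml were nearly equal, and each further dose was higher. The difference from untreated astrocytes was 2.83-fold at 10 and 25.7-fold (4.69 log2) at 100 µg/ml. Of its log2 change at the highest dose, 32.1% was present at 10 µg/ml.

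**Figure D2:**
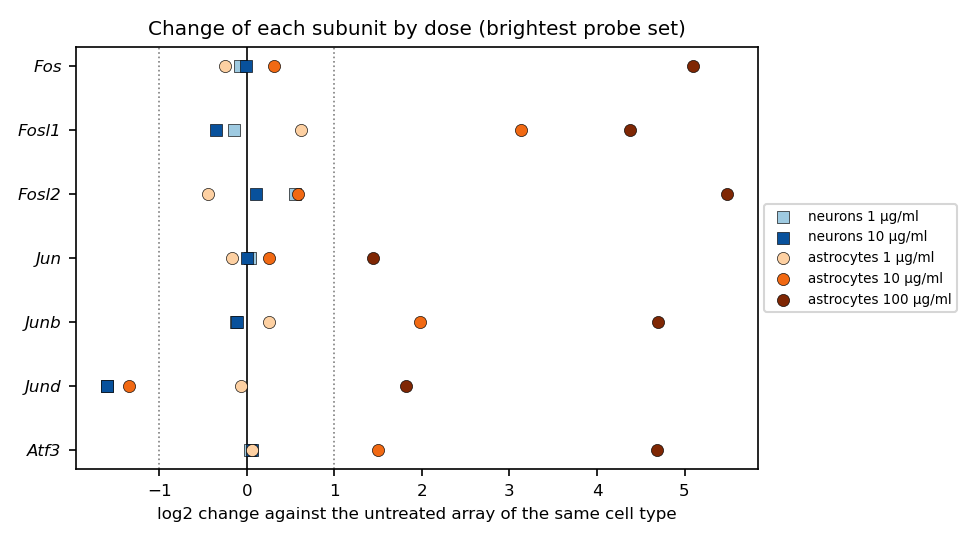
Change in log2 signal of each subunit's brightest probe set against the untreated array of the same cell type, with 1 point per treated array and dotted lines at 2-fold. Fosl1, Junb and Atf3 lie beyond 2-fold in astrocytes at 10 µg/ml, all 7 genes do at 100 µg/ml, and the neuron points other than those of Jund lie within 2-fold.

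The subunits thus differed in the dose at which their signals parted from the untreated array. At 10 µg/ml Fosl1, Junb and Atf3 were at least 2-fold higher, Jund was lower and Fos, Fosl2 and Jun lay within 2-fold, a count of 3 of 7 where 3.84% of all genes were higher and 4.77% lower. From 10 to 100 µg/ml all 7 were at least 2-fold higher, where 5.76% of all genes were. The step between those doses was 4.79 log2 for Fos and 4.90 for Fosl2, but 1.25 for Fosl1 and 1.19 for Jun. At 1 µg/ml no subunit differed 2-fold from untreated astrocytes, where 1.88% of all genes were higher and 3.1% lower. Fosl1 differed by 0.62 log2 at that dose, and a dim probe set of Jun by 0.63. All these comparisons with untreated cells share the same single array. Changes at 1 against 0 µg/ml had an SD of 0.37 log2 over the 4252 probe sets past the filter, which gives the scale of differences between the astrocyte arrays at the lowest doses.

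The promoters of Fosl1 and Junb are shown because these genes were higher at both 10 and 100 µg/ml, and that of Jund because it holds a full cyclic AMP response element (CRE), the site that ATF proteins and their dimers with Jun can bind. RefSeq promoters of the build GRCr8 were found for 5 of the 8 genes, and the 250 bases before the gene start are given 5′ to 3′ on the strand of the gene. Capitals mark the CRE letters TGACGTCA, their 5-letter part TGACG on either strand, which the full element contains, and the letters TATAAA on the gene strand.
Fosl1: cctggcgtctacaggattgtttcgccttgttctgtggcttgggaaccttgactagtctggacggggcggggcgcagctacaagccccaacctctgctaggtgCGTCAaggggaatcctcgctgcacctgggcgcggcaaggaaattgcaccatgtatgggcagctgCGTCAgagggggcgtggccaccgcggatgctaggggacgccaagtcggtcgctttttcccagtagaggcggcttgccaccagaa
Junb: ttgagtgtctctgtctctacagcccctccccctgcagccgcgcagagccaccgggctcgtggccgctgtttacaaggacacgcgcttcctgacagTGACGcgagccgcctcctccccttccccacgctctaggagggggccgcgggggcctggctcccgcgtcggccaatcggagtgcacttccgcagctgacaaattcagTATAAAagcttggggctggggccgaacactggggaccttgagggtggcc
Jund: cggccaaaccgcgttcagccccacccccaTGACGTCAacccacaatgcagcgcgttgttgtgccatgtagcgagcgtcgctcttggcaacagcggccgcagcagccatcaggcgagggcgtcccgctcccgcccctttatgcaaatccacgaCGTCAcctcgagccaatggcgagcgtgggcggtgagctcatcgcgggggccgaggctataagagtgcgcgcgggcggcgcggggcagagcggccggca
They lie at chr1:212183635-212183884 on the plus strand, chr19:40080876-40081125 on the plus strand and chr16:18769772-18770021 on the minus strand. The full CRE of Jund starts 221 bases before the gene start, and 1.59% of 33469 rat promoters of the same length hold these letters. TGACG, present in 18.2% of them, starts 155 bases before Junb, and its reverse complement occurs at 2 places before Fosl1. TATAAA, present in 8.06%, starts 49 bases before Junb. The TPA response element TGACTCA was also searched on both strands. It is present in 4.05% of promoters and in none of these windows. The windows of Fosb and Fosl2 hold none of the searched letters. A match is a stretch of letters and was not tested as a site.

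In neurons the signals of the same genes differed little over the doses. Fos had 695.5, 658.5 and 692.8 at 0, 1 and 10 µg/ml by its brightest probe set, Junb 649.8, 594.0 and 599.4, and Jun 1634.6, 1676.8 and 1638.8. Atf3 had 349.6, 359.4 and 364.4. By these probe sets neither treated array differed from the untreated one by more than 0.13 log2. Other probe sets of the same genes differed more, by up to -0.37 log2 for Fos, -0.34 for Jun and -0.18 for Junb, each at 1 µg/ml. Fosl1 gave 294.2, 266.5 and 230.0, a change of -0.36 log2 at 10 µg/ml. Fosl2 gave 50.6, 74.1 and 54.2, below the median of all signals on each array. No subunit was at least 2-fold higher at either dose, where 2.09% of all genes at 1 µg/ml and 1.86% at 10 µg/ml were. Jund alone was lower, by at least 3.02-fold at both doses, where 1.9% and 2.24% of all genes were lower, and its untreated signal was itself below the median of all signals. Neurons were not given 100 µg/ml, so the dose with the high astrocyte signals has no neuron counterpart.

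Between the cell types at shared doses, most subunits had higher signals in neurons than in astrocytes without extract, and the order turned for some at 10 µg/ml. By brightest probe sets, 6 of the 7 genes were higher in neurons in untreated cultures, where 42.9% of all genes were. At 1 µg/ml 5 of the 7 were, where 46.1% of all genes were. At 10 µg/ml only Fos and Fosl2 were, 2 of the 7, where 47.8% were. There Jun was nearly level (-0.01 log2), while its other probe sets were higher in neurons, by 0.37 to 1.15. Jund was under the floor in both cell types at 10 µg/ml. The dimmest Fos probe set stood at -0.26 and the dimmer Fosl2 at -0.17. Fosl1 was 1.99 and 1.23 log2 higher in neurons than in astrocytes at 0 and 1 µg/ml, and 1.49 lower at 10 µg/ml. By its brighter probe set Junb was 0.74 and 0.36 log2 higher in neurons at 0 and 1 µg/ml, and 1.36 lower at 10 µg/ml. Its other probe set stood at 0.16, -0.13 and -1.72, so the direction at 1 µg/ml depends on the probe set. For both genes the astrocyte array at 10 µg/ml was the high one, and the neuron signals at the 3 doses lay close together.

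Averaged over the 3 doses, Fos by its brightest probe set had a signal of 682 ± 20.6 in neurons and 439 ± 86.0 in astrocytes (SD, n = 3 arrays at different doses each), a difference of 0.65 ± 0.25 log2 (SD, n = 3 doses). Its 3 neuron arrays lay above the 3 astrocyte arrays, although the other probe sets of Fos overlapped. Jun by its brightest probe set had 1650 ± 23.2 in neurons and 1421 ± 214 in astrocytes, and its arrays overlapped. Its second brightest probe set (0.43 log2) and its dimmest (1.03) were higher on all neuron arrays, and the remaining probe set overlapped. Atf3 had 358 ± 7.53 in neurons and 722 ± 465 in astrocytes, with all astrocyte arrays higher and a difference of -0.83 ± 0.83 log2. By brightest probe sets, Fos and Fosl2 were higher on all neuron arrays, where 22.4% of all genes were. Atf3 was higher on all astrocyte arrays, where 18.1% were. The dimmer Fosl2 probe set overlapped, at -0.04 log2 on average. At 0 and 1 µg/ml alone, Fos, Fosl1, Fosl2, Jun and Junb were higher on both neuron arrays, 5 of 7, where 29% of all genes were. The dimmer probe sets of Junb and Fosl2 overlapped at these doses. The median difference of the 7 subunits over the 3 doses was 0.23 log2, and that of all genes past the filter 0.06.

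**Figure D3:**
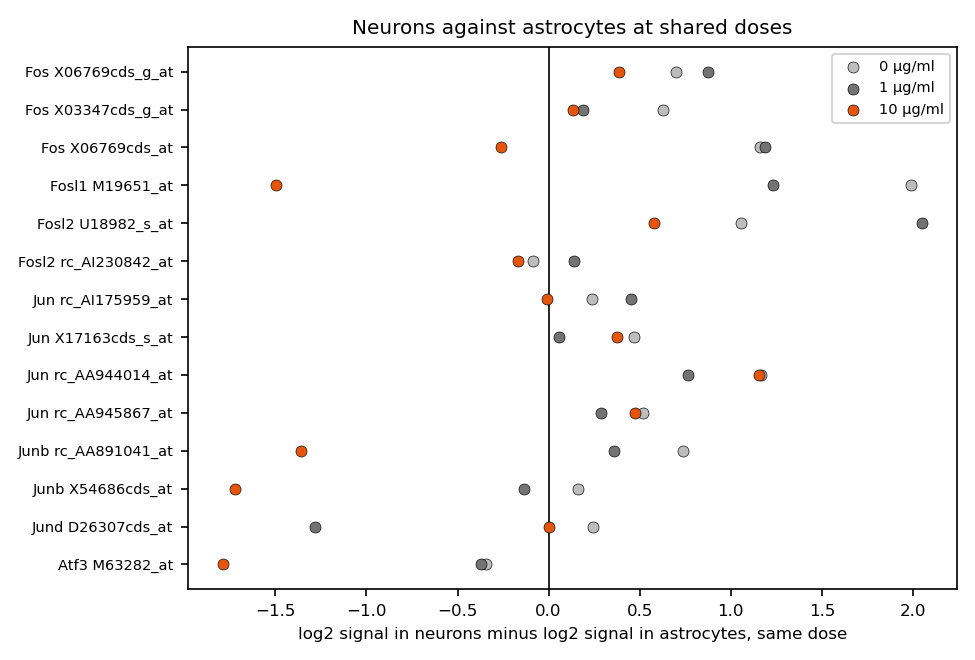
Difference in log2 signal of neurons minus astrocytes for each AP-1 subunit probe set, with 1 point per shared dose. The points for 10 µg/ml lie left of zero for Fosl1, both Junb probe sets, Atf3, the dimmest Fos and the dimmer Fosl2. That of the brightest Jun lies just left. The points for 0 µg/ml lie right of zero for all probe sets but those of Atf3 and the dimmer Fosl2.

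Among the subunits themselves, profiles were set side by side as the root mean square difference of log2 signals over the 7 arrays, each centred on its own mean. Junb and Atf3 were the closest pair of the 5 subunits past the filter, at 0.43 log2, followed by Fosl1 and Junb at 0.60 and Fos and Junb at 0.63. Jun and Atf3 were the farthest, at 1.30. The 7 points are 1 array of each kind, so the measure is a description of these arrays.

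By the same measure, each subunit was set against the other genes past the filter. Nearest to Fos were Pdp2, a phosphatase of the pyruvate dehydrogenase complex (0.36), Tac1, the precursor of substance P (0.40), and Inhba, the activin A subunit (0.46). Pdp2 had 174.5, 139.2, 146.8 and 3036.9 in astrocytes at 0, 1, 10 and 100 µg/ml, which like Fos stood apart at the highest dose only. Nearest to Fosl1 were Gch1, the first enzyme of tetrahydrobiopterin synthesis (0.34), Nfkbia, the inhibitor of NF-kB (0.37), and Cebpb, a leucine zipper factor of inflammation (0.39). Gch1 had 125.1, 169.2, 1202.5 and 1286.4, so that most of its change was present at 10 µg/ml. Nearest to Junb were Pvr (0.37), a cell adhesion receptor, Inhba (0.38) and Cebpb (0.40). Nearest to Atf3 were Ddit3, the stress factor CHOP (0.31), Ier3, an immediate early gene (0.31), and Mmp9, a matrix protease (0.40). Ddit3 had 391.6, 407.3, 723.7 and 5304.9 in astrocytes. Nearest to Jun were Mat2a, which makes S-adenosylmethionine (0.10), Hspa5, a chaperone of the endoplasmic reticulum (0.12), and Rasa2, a regulator of Ras (0.12).

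Other leucine zipper factors, from relatives of CREB, ATF, Maf and C/EBP, lay on both sides of the untreated level at 100 µg/ml. Because the signal filter averages over the treated arrays, it can admit a gene for being high at 100 µg/ml, so the related lists are counted here over all measured genes. All related lists were chosen with earlier results of these data known, so their counts are descriptions. Of 17 factors, 3 were at least 2-fold higher and 1 was lower, where 6.27% and 16% of all genes were, and their median was -0.02 log2 against -0.13 for all genes. Cebpb had 246.1, 367.0, 1445.4 and 3790.4 at 0, 1, 10 and 100 µg/ml, a change of 3.94 log2 at the highest dose, and like Junb it was also higher at 10 µg/ml. Ddit3 was 3.76 log2 higher. Crem, a CREB relative, was 1.59 higher by its brightest probe set, but its 4 probe sets ranged from -0.73 to 1.59. Maf, the founding large Maf factor, was lower, with 2055.5, 2276.2, 1769.6 and 405.0, or -2.34 log2.

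The MAP kinase route that switches on Fos and activates Jun had mostly lower signals at 100 µg/ml. Of 18 measured kinases and partners, 10 lay 2-fold or more below untreated astrocytes while 0 lay above by as much, where 16% and 6.27% of all genes did, and the median was -1.17 log2. Of the 14 whose untreated signal lay above the median of all signals, 10 were lower, where 21.5% of such genes were. This selection was added after the values were seen. Map2k6, an activator of the p38 kinases, had 329.8, 295.9, 97.8 and 96.3 at 0, 1, 10 and 100 µg/ml, so its lower signal was present at 10 µg/ml. Mapk14, the p38 alpha kinase, had 2108.3, 1831.2, 1700.0 and 673.9, a change of -1.65 log2, but its 6 probe sets ranged from -2.20 to 0.09. Mapk7, the ERK5 kinase, differed by -1.62 log2 and Mapk9, the JNK2 kinase, by -1.46, but the 3 probe sets of Mapk9 ranged from -1.46 to 0.0. After quantile normalization 6 were at least 2-fold lower, and 8 with changes centred on their median. Only Map2k6 was lower at 10 µg/ml, where 4.77% of all genes were.

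Genes known as AP-1 targets from other work, a list that also holds targets of NF-kB, were mostly higher. The list was chosen with earlier results of these data known, so its counts describe it and are no evidence about AP-1 targets as a group. Of 27 measured, 21 were at least 2-fold higher at 100 µg/ml and none lower, where 6.27% and 16% of all genes were, with a median of 1.79 log2. Of the 16 whose untreated signal lay above the median of all signals, 10 were higher, where 4.82% of such genes were. This selection, which leaves out Il6, Ptgs2, Tnf and Mmp3, was added after the values were seen. Mmp9, a matrix protease, had 158.1, 140.5, 791.7 and 3229.5 at 0, 1, 10 and 100 µg/ml, or 4.35 log2 at the highest dose. The cytokine Il6 was 9.83 log2 higher by its brightest probe set, from an untreated signal of 19.6, just above the floor, and 6.98 by its other. Tnf, also a cytokine, was 5.45 log2 higher by its only probe set. Ptgs2, the inducible cyclooxygenase, had an untreated signal of 11.3, under the floor, and its 2 probe sets differed by 5.34 and 7.57 log2 with signals raised to the floor. At 10 µg/ml 13 of the 27 were at least 2-fold higher and 1, the gap junction gene Gja1, was lower, where 3.84% and 4.77% of all genes were, with a median of 0.68. Vim, Penk, Spp1 and Ccnd1 of this list differed by less than 0.1 log2 at 100 µg/ml by their brightest probe sets, although the 5 probe sets of Ccnd1 ranged from -0.57 to 0.29.

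Of 23 other immediate early genes, 11 were at least 2-fold higher at 100 µg/ml and 2, Dusp6 and Homer1, lower, where 6.27% and 16% of all genes were, with a median of 0.95 log2. The 6 probe sets of Homer1 ranged from -1.40 to 1.32, so its direction depends on the probe set. Of the 19 whose untreated signal lay above the median of all signals, 9 were higher and 2 lower, where 4.82% and 21.5% of such genes were. Nr4a1, an orphan nuclear receptor, had 109.2, 82.9, 159.8 and 11099.2 at 0, 1, 10 and 100 µg/ml, which stood apart at the highest dose as Fos did. Dusp1, a phosphatase that turns off MAP kinases, had 163.8, 239.0, 214.8 and 6243.0, or 5.25 log2. Ier3 was 3.74 log2 higher. Nr4a3 was 3.88 log2 higher by its brightest probe set, with a range of -0.03 to 4.82 over its 3 probe sets. Of the 23, Ier3 and Zfp36 were at least 2-fold higher at 10 µg/ml and Ccn1 and Ier5 lower, where 3.84% and 4.77% of all genes were, with a median of 0.39 log2.

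In neurons the genes of the 4 related lists that passed the filter stayed within 2-fold with a single exception. None of the 8, 15, 17 and 21 genes past the filter in neurons was, at 10 µg/ml, at least 2-fold higher or lower, where 0.288% and 0.504% of genes past the filter were. At 1 µg/ml none was higher and 1 immediate early gene, Ier5, was lower, with 47.1 against 106.6 at 0 µg/ml, where 0.288% of genes past the filter were in each direction. Over all measured genes of these lists, Faslg was higher and Jdp2, Crem and Ier5 lower at 1 µg/ml, where 2.09% and 1.9% of all genes were. At 10 µg/ml Faslg and Mapk12 were higher and Jdp2 lower, where 1.86% and 2.24% were. The untreated neuron signals of Faslg (9.2) and Mapk12 (13.4) were under the floor.

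**Figure D4:**
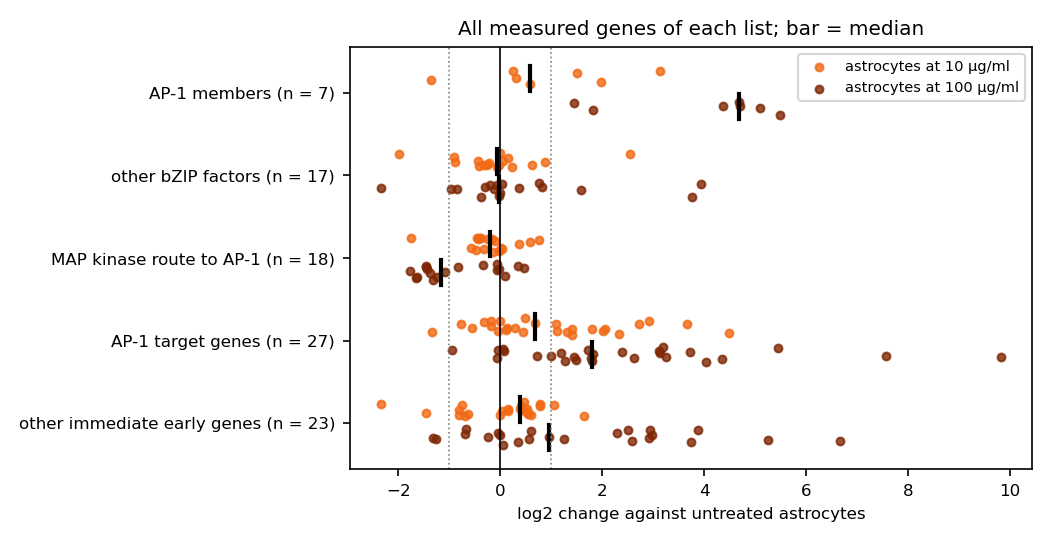
Change in log2 signal against untreated astrocytes for all measured genes of the AP-1 list and 4 related lists, with 1 point per gene, black bars at the medians and dotted lines at 2-fold. At 100 µg/ml the medians are 4.69 for AP-1 subunits, -0.02 for other leucine zipper factors, -1.17 for the MAP kinase route, 1.79 for AP-1 target genes and 0.95 for other immediate early genes.

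The related lists, which hold no AP-1 subunit, were also tested between the cell types with limma over the 6 arrays at shared doses, in which arrays of different doses stand as replicates. Of the 4709 probe sets tested, 25% were higher in neurons and 19.3% lower at an adjusted p below 0.05. The filter admitted a probe set that was high in either cell type, so it was not independent of the difference tested. Its astrocyte average also took in the array at 100 µg/ml, which the test left out. Nr4a2, Mmp12 and Mapk8ip1 passed the filter in neurons only, and Mmp3 and Il6 in astrocytes only. Of 21 immediate early genes tested, 6 were higher and 3 lower in neurons, and 9 were higher and 3 lower with dose as a block. Without the filter, 6 of 23 were higher and 1 lower. Nr4a3 was higher by 4.23 log2 (limma adjusted p = 5.2e-05). At 0, 1 and 10 µg/ml its signals were 758.1, 826.7 and 800.6 in neurons, against 54.5, 23.3 and 60.4 in astrocytes. Nr4a2, another orphan receptor, was higher by 2.15 (limma adjusted p = 0.00274) and Arc, a synaptic immediate early gene, by 1.79 (adjusted p = 0.0005). Of 22 AP-1 targets 5 were higher and 3 lower in neurons, and without the filter 4 of 27 were higher and 1 lower. Mmp12, a macrophage elastase, was higher in neurons by 1.81 (limma adjusted p = 0.0172), while Mmp3, a stromelysin, and Il6 stood at -1.51 and -1.65 (adjusted p = 0.118 and 0.243). The astrocyte array at 10 µg/ml weighed most in both averages. At 0, 1 and 10 µg/ml Il6 had 12.2, 18.5 and 22.5 in neurons against 19.6, 26.8 and 442.4 in astrocytes. Mmp3 had 40.8, 22.8 and 35.6 against 40.9, 60.4 and 311.0.

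Of 15 MAP kinase route genes 2 were higher and 2 lower in neurons, and without the filter 1 of 18 was higher and 2 lower. Mapk8ip1, a JNK scaffold of neurons, was higher by 1.44 log2 (limma adjusted p = 0.00393) and Map3k12, a neuronal kinase upstream of JNK, by 0.68 (adjusted p = 0.0205). Map3k3, another kinase of that tier, was lower (-1.02, limma adjusted p = 0.00456). Of 9 leucine zipper factors Cebpd was higher and 3 lower, namely Maf (limma adjusted p = 5.84e-05), Ddit3 (-1.11 log2, adjusted p = 0.00699) and Dbp, a clock output factor (-0.69, adjusted p = 0.00639). Cebpd, with a difference of 0.34 log2 (limma adjusted p = 0.0214), did not pass with dose as a block (adjusted p = 0.0525). Without the arrays at 1 µg/ml, 1 MAP kinase gene, 2 leucine zipper factors and 5 AP-1 targets passed, and without those at 0 µg/ml 2 MAP kinase genes and 5 AP-1 targets did.

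Markers of other cell types were present on the arrays of both cell types, and some differed between doses. The 10 astrocyte markers summed to 34561 to 35729 on the neuron arrays and to 35111 to 40241 on the astrocyte arrays. The summed signal of 9 microglia and macrophage genes was 5767, 6647, 7304 and 3943 in astrocytes at 0, 1, 10 and 100 µg/ml, and 826 to 1194 in neurons. Of these 9 genes Cd53 and Fcgr2b were at least 2-fold higher at 10 µg/ml, and at 100 µg/ml Fcgr2b was higher and Aif1 and Cx3cr1 were lower. Aif1, a microglial marker, had 250.8 in astrocytes at 100 µg/ml, against 1636.5 in untreated astrocytes, but its 3 probe sets ranged from -2.71 to 0.35 log2. Csf1r and Itgam, which define microglia, had signals of at most 29.0 on every array. The 7 oligodendrocyte genes summed to 8731 to 14057 on the astrocyte arrays and to 2183 to 2300 in neurons. Among them Pdgfra had 3730.1, 4949.7, 7779.8 and 1231.8 in astrocytes at 0, 1, 10 and 100 µg/ml, and Mbp 3895.3, 3231.5, 3377.9 and 5222.2. The 11 fibroblast and meningeal genes summed to 39196 to 50885 on the astrocyte arrays and to 15385 to 17343 in neurons. At 100 µg/ml no gene of either list was at least 2-fold higher by its brightest probe set. Pdgfra and Sox10 of the oligodendrocyte list (-1.60 and -1.41 log2) and Dcn of the fibroblast list (-1.97) were lower there by their brightest probe sets, as were the astrocyte markers Slc1a3 (-2.04) and Aqp4 (-1.15). Other probe sets of Pdgfra, Slc1a3 and Dcn reached 0.13, 0.13 and -0.17. The part of these cells in the AP-1 signals was not tested.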

How the data were processed

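Gene expression was measured on 7 one-colour Affymetrix arrays, 1 for each combination of cell type and dose. The values are signal intensities on a linear scale as deposited, which the authors computed per array with GCOS, per the submitters' processing notes. Its version and settings are not stated in those notes. Of 8799 probe sets, 59 controls were left out. Symbols came from the platform annotation, which gave a single symbol to 7006 probe sets, several to 308 and none to 1426. They were looked up by gene ID in RefSeq, which found 6985 and changed none.

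Signals were raised to the 25th percentile (17.9), and log2 was taken. The filter kept 4453 probe sets in neurons, 4252 in astrocytes and 4709 in either. A fold against a signal under the floor is a lower bound. The related lists were tested between cell types by a two-sided moderated test (limma 3.58.1, trended eBayes, run under R 4.3.3) with Benjamini-Hochberg adjustment over 4709 probe sets. The code was tested on simulated data. Genes of the related lists were named by the 4 largest changes at 100 µg/ml and the 3 largest differences between cell types, with all subunits and the 3 nearest profiles of each. Vim, Penk, Spp1, Ccnd1, Ier5, Zfp36, Ccn1, Gja1, Dusp6, Homer1, Cebpd, Faslg, Jdp2, Mapk12 and the cell type markers were picked after their values were seen. Members and lists were chosen with earlier results of these data known. Alternatives covered scaling, floor, filter, probe sets, reference array, fold, doses left out, dose as a block and the variance prior. A filter on the untreated signal alone was added after the data were seen. Precision is limited by how few arrays there are. Plots used matplotlib 3.10.9 under Python 3.11.15.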

Additional observations from a re-analysis of the deposited data

Results flagged for a closer look

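The changes of Fosl1 and Junb had opposite signs in the 2 cell types at both 1 and 10 µg/ml, but those in neurons were small. Changes in neurons had an SD over probe sets past the filter of 0.26 log2 at 1 µg/ml and 0.28 at 10 µg/ml. In astrocytes at 1 µg/ml the Junb probe sets changed by 0.25 and 0.12 log2, less than the SD of 0.37 there. At 10 µg/ml Fosl1 changed by -0.36 log2 in neurons and by 3.13 in astrocytes. The brighter probe set of Junb changed by -0.12 log2 in neurons and by 1.98 in astrocytes, and the other by -0.15 and 1.74. A Fos probe set, not its brightest, changed by -0.0136 log2 in neurons and by 0.48 in astrocytes. Each rests on 2 treated arrays and 1 untreated array of each cell type, and the difference between the cell types was not tested.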

How the results depend on the processing

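The counts of subunits at least 2-fold higher in astrocytes, 3 at 10 and 7 at 100 µg/ml, held under quantile normalization, centring on the median change, both other floors, the mean over probe sets and the mean of lower doses as reference. Against the array at 1 µg/ml, 4 subunits were higher at 10 µg/ml. With a 4-fold limit 1 subunit was higher at 10 µg/ml, and with a 1.5-fold limit 1 was higher at 1 µg/ml. Of 252 alternative values of the subunits' dose changes, 221 moved by less than the SD of changes at 1 µg/ml over probe sets and none changed sign after a 2-fold call, and 26 of the 31 that moved further were of Fosl2 or Jund, the dim genes. The labels number no replicates, and the arrays of the cell types pair only by dose. With dose as a block, limma called 1871 probe sets, 3 leucine zipper factors, 4 MAP kinase genes, 8 AP-1 targets and 12 immediate early genes, and the call of Cebpd was lost.

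Between the cell types, the genes with all neuron arrays higher numbered 0 to 5 against 2, with 5 when the arrays at 10 µg/ml were left out and 0 when astrocytes at 100 µg/ml were added. With that array Fosl2 stood at -0.13 log2 on average, against 1.23. Among genes past the filter, 10 MAP kinase genes were lower at 100 µg/ml, and 15 AP-1 targets and 10 immediate early genes higher. With the filter on the untreated signal alone these were 10, 10 and 9, where 21.5% of such genes were lower and 4.82% higher. Of the MAP kinase genes, 6 were lower after quantile normalization, 3 with a filter at the 75th percentile and 0 at 4-fold, against 10. That filter left 8 AP-1 targets and 6 immediate early genes higher, against 15 and 10.

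The limma calls between cell types numbered 2086 of all probe sets, 1286 with that filter, 1220 by gene means, and 1242 to 2026 with the arrays of a dose left out. Of the related lists, leaving out a dose gave 2 to 4 leucine zipper factors (against 4), 1 to 3 MAP kinase genes (against 4), 5 to 10 AP-1 targets (against 8) and 7 to 13 immediate early genes (against 9). Adding astrocytes at 100 µg/ml gave 0 leucine zipper factors, 3 targets and 4 immediate early genes. Gene means gave 2 leucine zipper factors, no filter 5 targets, and the stricter filter 1 MAP kinase gene. These tests used fewer or other arrays and probe sets; the cause of each difference was not tested.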
